A study of Mus musculus with 23 samples.

Results

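The genes of polycomb repressive complex 2 (PRC2) were followed by RNA-seq: the core subunit genes Ezh1, Ezh2, Eed, Suz12 and Rbbp7 and the accessory subunit genes Jarid2, Aebp2, Mtf2, Phf1 and Phf19. They were taken by gene name, not by any measured value, and all 10 had 1 row each among the 23363 gene names with a value. The cells were Kdm2b fl/fl mouse embryonic stem cells (ESCs), in which loxP sites flank the exon for most of the ZF-CxxC domain of KDM2B on both alleles and which stably express a tamoxifen-inducible Cre recombinase (ERT2Cre at the Rosa26 locus, 1 allele). Every culture, untreated ones included, carried these floxed alleles and the Cre, and no Cre-expressing line without loxP sites was analysed here, so that deletion of the exon and exposure to tamoxifen cannot be told apart. There were 3 untreated replicates and 3 with tamoxifen for 72 hr by their labels, all from cells grown on fibroblast feeders and then settled overnight without them. The labels call the line MS12, whereas the methods use that name for the ESCs in which the allele was made and derive the floxed Cre lines from a mouse cross. The labels give 800 nM of 4-hydroxytamoxifen, the series text 800 µM.

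Groups are those of the sample labels, and file names read the other way for all 6 RNA-seq samples, and under that reading every difference below keeps its size and p and changes its sign. The targeted gene could not settle which reading holds, because its value covers the whole gene and not the floxed exon. Kdm2b read 26.95, 21.5 and 27.7 FPKM in untreated replicates 1, 2 and 3 and 19.9, 21.9 and 25.0 FPKM in tamoxifen replicates 1, 2 and 3 (limma adjusted p = 0.999, and 0.31 with the replicate number in the fit). FPKM corrects the fragments on a gene for transcript length and library size, so levels of different genes within a sample can be set side by side. Summed FPKM over all gene names still ran from 549153 in untreated replicate 1 to 1045515 in untreated replicate 2. The part of this spread in the patterns by replicate number was not tested. Read counts are not in the tables. The upper interval bounds of rows at 0 FPKM gave an indirect estimate of each sample's depth relative to untreated replicate 1. Its median over rows was between 0.656 and 0.955 for the other 5 samples. This estimate rests on the software's scaling between samples, which is not given.

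PRC2 methylates histone H3 on lysine 27, the mark of polycomb domains. EZH2 or its paralog EZH1 is the catalytic subunit, active only together with EED, which binds the methylated product, and SUZ12, the scaffold on which the other subunits assemble, while RBBP7 and its close paralog RBBP4 are histone-binding chaperones. In ESCs the core associates with one of 2 kinds of partner, either a Polycomb-like protein (MTF2, PHF1 or PHF19), which binds CpG-rich DNA and methylated lysine 36 of histone H3, or JARID2 with AEBP2, which can bind ubiquitylated histone H2A, the product of PRC1. KDM2B, whose ZF-CxxC domain binds nonmethylated CpG dinucleotides, carries one variant PRC1 complex to CpG islands.

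Of the 10 genes, Phf19 stood apart. Its transcript was 2.12-fold higher in the samples labelled tamoxifen, with no overlap between the groups. Of all genes tested, 3.09% were separated in this direction. Phf1, for a paralog in the same position of the complex, was instead lower in each replicate number, as were 28.2% of all genes tested. Ezh2 and Mtf2 were modestly higher in each replicate number. Eed and Rbbp7 were also higher in each, as were 24.8% of all genes tested. The differences for Suz12, Eed, Rbbp7, Ezh1, Jarid2 and Aebp2 lay between 0.895-fold and 1.12-fold. Neither these genes nor Ezh2 and Mtf2 passed the threshold, with or without the replicate number in the fit. In bulk RNA, fewer cells of a type and less RNA per cell cannot be told apart. Without the replicate number in the fit, 0 of the 10 genes passed an adjusted p of 0.05 in limma. Of the 12997 genes tested, 0.0231% were called higher and 0.00769% lower. At an unadjusted p under 0.05 in limma it was 1 of the 10 genes, Phf19, beside 623 of the 12997 genes tested. With the replicate number as a block, Phf19 was called higher and Phf1 lower, where 4.33% and 6.06% of all genes tested were called in these directions. With 10 genes, 1 call on each side is near this background. With the block 4 of the 10 (Phf19, Phf1, Ezh2 and Mtf2) had an unadjusted p under 0.05 in limma. The share of all genes tested at this unadjusted threshold was not computed, so no excess can be read from that count.

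The promoter sequences of the genes that differed most are shown for their CpG dinucleotides, which KDM2B binds where nonmethylated, a state not analysed here. They run from 250 bases before to 50 bases after the RefSeq gene start (build GRCm38.p6, 5′ to 3′ on the strand of the gene), with CpG dinucleotides in capitals: Phf19 at chr2:34913927-34914226 on the minus strand, Phf1 at chr17:26932877-26933176 on the plus strand and Ezh2 at chr6:47594981-47595280 on the minus strand.
Phf19: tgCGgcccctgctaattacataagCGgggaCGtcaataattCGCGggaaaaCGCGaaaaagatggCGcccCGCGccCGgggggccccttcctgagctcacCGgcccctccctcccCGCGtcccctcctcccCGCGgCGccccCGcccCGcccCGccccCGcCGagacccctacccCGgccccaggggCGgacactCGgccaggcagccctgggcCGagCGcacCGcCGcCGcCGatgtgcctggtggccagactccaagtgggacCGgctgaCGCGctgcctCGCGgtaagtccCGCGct
Phf1: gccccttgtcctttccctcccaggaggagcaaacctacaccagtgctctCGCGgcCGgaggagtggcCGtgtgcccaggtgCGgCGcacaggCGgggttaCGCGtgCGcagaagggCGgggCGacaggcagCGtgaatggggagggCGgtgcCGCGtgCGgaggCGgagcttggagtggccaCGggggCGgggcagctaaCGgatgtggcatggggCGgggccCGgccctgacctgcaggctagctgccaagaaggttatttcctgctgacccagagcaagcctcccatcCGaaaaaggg
Ezh2: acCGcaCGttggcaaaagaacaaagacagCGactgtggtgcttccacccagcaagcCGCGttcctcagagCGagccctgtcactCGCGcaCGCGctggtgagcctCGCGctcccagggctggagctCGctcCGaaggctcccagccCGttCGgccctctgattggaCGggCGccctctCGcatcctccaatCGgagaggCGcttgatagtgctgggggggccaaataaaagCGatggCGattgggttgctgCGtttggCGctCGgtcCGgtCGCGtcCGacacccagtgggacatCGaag

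These windows held 38 CpG dinucleotides in Phf19, 24 in Phf1 and 31 in Ezh2, and the median over 32851 promoters of this length was 7. High counts were not particular to genes that differed, since Suz12, which differed least, had 41, and Rbbp7 had 38. A count of at least 38 was found in 4.95% of all promoters. All 10 genes had a RefSeq promoter, and 3 of them, Jarid2, Aebp2 and Mtf2, had more than one. The motif TTTNNCGC, with each N a C or a G, is a consensus of the E2F factors of the cell cycle, and every match holds a CpG by its own letters. On either strand it matched once in each of the promoters of Ezh2, Suz12 and Phf19, which is 3 of the 10 genes, and in 2.26% of all promoters. KDM2B occupancy itself was not analysed here, and these counts describe letters only.

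Levels of the 10 genes spanned 30.03-fold between the highest and the lowest mean. Over the 6 samples Suz12 had a mean of 140.3 ± 24.0 FPKM and Rbbp7 of 139.7 ± 33.1 FPKM (SD, n = 6), with Suz12 above Rbbp7 in 4 of 6 samples. Below these came Jarid2 at 63.4 ± 11.1, Eed at 60.01 ± 12.1, Ezh2 at 57.3 ± 13.4 and Mtf2 at 48.2 ± 8.77 FPKM (SD, n = 6). Neighbours among these 4 were not separated beyond their spread, each being above the next in only 3 or 4 of 6 samples. Aebp2 followed at 23.3 ± 5.00 FPKM and Ezh1 at 13.0 ± 2.89 FPKM (SD, n = 6), each above the next gene in 6 of 6 samples. At the bottom, Phf19 had 7.61 ± 3.13 and Phf1 4.67 ± 1.61 FPKM (SD, n = 6), although Ezh1 and Phf19 overlapped in range, and Phf19 was above Phf1 in 5 of 6 samples, the exception being untreated replicate 2.

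**Figure D1:**
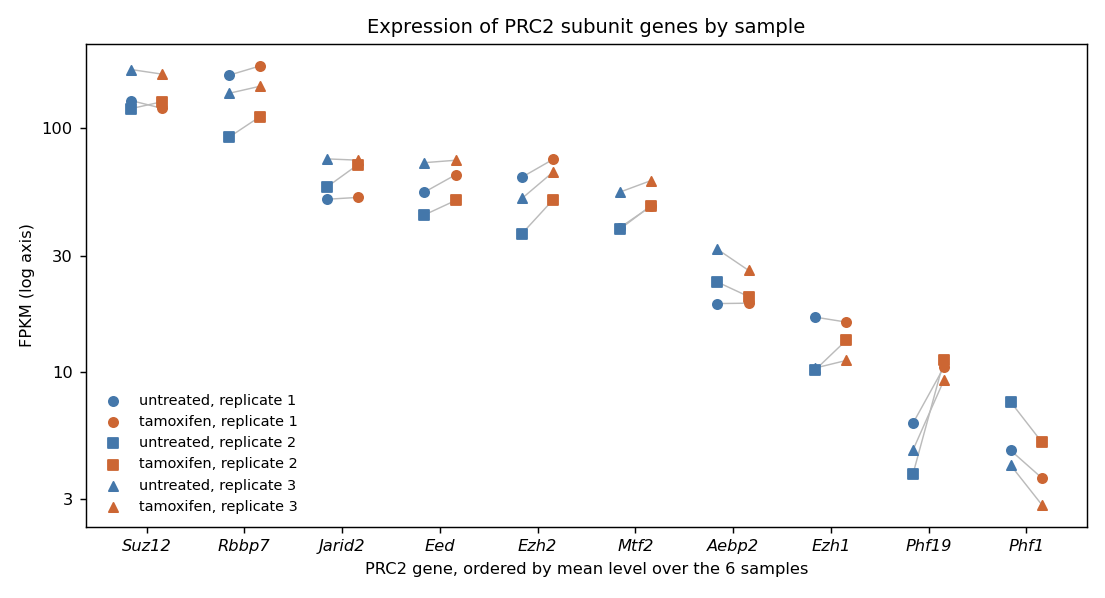
FPKM on a log axis for the 10 PRC2 genes in each of the 6 samples, blue for untreated and orange for tamoxifen, with 1 symbol per replicate number and a grey line joining samples of the same number. Phf19 is the gene whose orange points, from 9.28 to 11.2 FPKM, all lie above its blue points, from 3.79 to 6.14 FPKM.

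Phf19 encodes a Polycomb-like protein, and lies at chr2:34749275-34769496 (mm9, minus strand, protein coding, 4 annotated transcripts). It read 6.14, 3.79 and 4.76 FPKM in untreated replicates 1, 2 and 3, and 10.5, 11.2 and 9.28 FPKM in tamoxifen replicates 1, 2 and 3. The lowest tamoxifen sample was thus above the highest untreated one, a separation in this direction that 3.09% of the genes tested shared. Group means were 4.90 ± 1.18 and 10.3 ± 0.972 FPKM (SD, n = 3 each). On the log2(FPKM + 0.1) scale the difference was 1.08 (standard error 0.25, limma adjusted p = 0.400), which ranked 171 from the top of 12997 genes. The block brought this to a limma adjusted p of 0.0105 (standard error 0.16), with a 95% interval of 1.63-fold to 2.75-fold. By replicate number the difference was 0.76, 1.54 and 0.95, largest in number 2, where the untreated sample had the lowest value. Leaving out number 2 gave 0.86 (limma with block, adjusted p = 0.08), and without number 1 or 3 it was 1.24 and 1.15 (limma with block, adjusted p = 3e-04 and 0.013).

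No other row overlapped the locus of Phf19. The nearest tested genes on either side, Psmd5 and Traf1, differed by 0.26 and 0.32 on the log2 scale (limma with block, adjusted p = 0.12 and 0.48). The authors' software gives an interval for each sample's FPKM. For Phf19 its half-width was 8.17% to 13.1% of the FPKM, and the bounds were not symmetric about the value. These intervals do not cover variation between replicates.

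Phf1, for another Polycomb-like protein, is a short gene at chr17:27070072-27074835 (mm9, plus strand, protein coding, 1 annotated transcript). In untreated replicates 1, 2 and 3 it read 4.75, 7.52 and 4.13 FPKM, and in tamoxifen replicates 1, 2 and 3 it read 3.66, 5.14 and 2.84 FPKM. The groups overlapped, because replicate number 2 was the highest of its group in both, yet the tamoxifen sample was the lower one within each number, by 0.37, 0.54 and 0.53 on the log2 scale. The mean difference was −0.48 (standard error 0.32, limma adjusted p = 0.999; with the block, standard error 0.12 and limma adjusted p = 0.048). That call was narrow. It was lost with the block when quantile normalization (limma adjusted p = 0.1) or scaling to TPM (limma adjusted p = 0.47) was added, and when replicate number 2 (limma adjusted p = 0.27) or 3 (limma adjusted p = 0.16) was left out. Phf1 is also the least precisely measured of the 10 genes, with an interval half-width of up to 22.3% of the FPKM. Its neighbours lie 547 bp and 81 bp away. They are Kifc5b, with a log2 difference of −0.28, and Cuta, with 0.19 (limma with block, adjusted p = 0.091 and 0.22).

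Mtf2, the third Polycomb-like gene, lies at chr5:108494693-108538238 (mm9, plus strand, protein coding). Its values were 39.1, 38.5 and 54.7 FPKM in untreated replicates 1, 2 and 3 against 47.9, 48.1 and 61.0 FPKM in tamoxifen replicates 1, 2 and 3. Each tamoxifen sample exceeded its partner, while the groups overlapped through replicate number 3. The log2 difference of 0.26 did not pass (limma adjusted p = 0.999, and 0.11 with the block). Mtf2 supplied 74.6% to 86.0% of the summed FPKM of the Polycomb-like genes in all 6 samples.

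Among the Polycomb-like transcripts, the share from Phf19 was 12.3%, 7.61% and 7.49% in untreated replicates 1, 2 and 3 and 16.9%, 17.4% and 12.7% in tamoxifen replicates 1, 2 and 3. Both groups were separate (exact permutation test over samples, p = 0.1, the smallest that 3 against 3 allow). The ratio of Phf19 to Phf1, 2 genes of low level, was 1.29, 0.505 and 1.15 in the untreated samples and 2.87, 2.18 and 3.27 in the tamoxifen samples (exact permutation test, p = 0.1). A ratio within a sample does not depend on how samples are scaled to each other. It shows unequal change of the genes and not which of them changed, and both measures were chosen after the values of Phf19 had been seen.

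**Figure D2:**
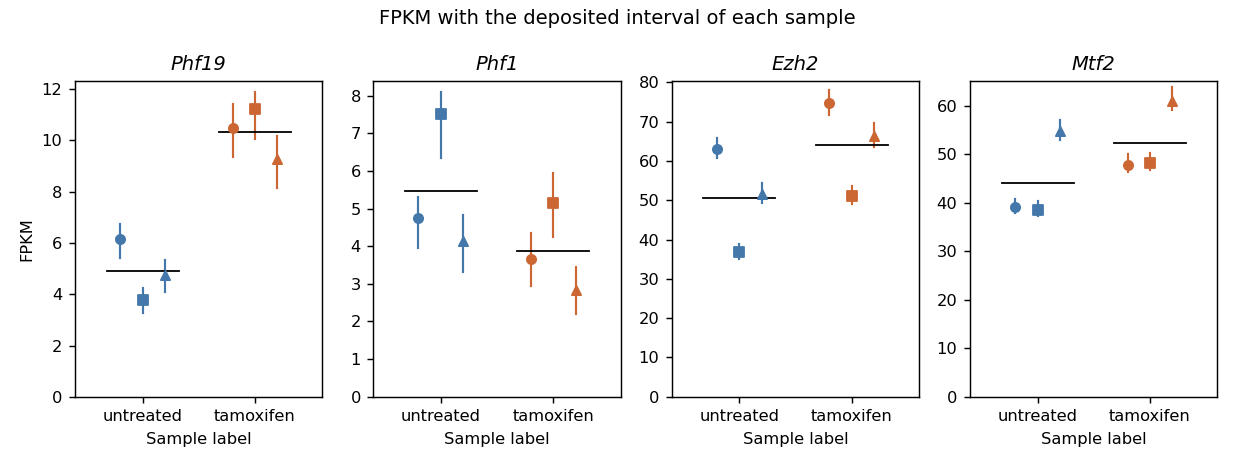
FPKM of Phf19, Phf1, Ezh2 and Mtf2 in each sample (points; symbols mark replicate numbers 1 to 3 from left to right) with the interval deposited for that sample (vertical lines) and the group mean (black line); the axes start at 0. In Phf19 the points of both groups are apart, and in the other 3 genes the points of both groups overlap in range.

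JARID2 and AEBP2 define the other form of PRC2. Jarid2, at chr13:44826143-45017012 (mm9, plus strand), read 51.1, 57.3 and 75.0 FPKM in untreated replicates 1, 2 and 3 and 52.0, 70.9 and 74.0 FPKM in tamoxifen replicates 1, 2 and 3. Aebp2, at chr6:140571184-140625939 (mm9, plus strand), read 19.1, 23.4 and 31.9 FPKM and then 19.1, 20.4 and 26.1 FPKM in the same order. Both genes kept one order of replicate numbers in either group, lowest in number 1 and highest in number 3. Their log2 differences were 0.11 for Jarid2 (limma adjusted p = 0.51 with the block) and −0.16 for Aebp2 (limma adjusted p = 0.32 with the block), and with the block the 95% intervals ran from 0.914-fold to 1.27-fold and from 0.760-fold to 1.05-fold.

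Taking Mtf2, Phf1 and Phf19 as markers of one form and Jarid2 and Aebp2 of the other, the Polycomb-like genes held 41.6%, 38.2% and 37.3% of the summed FPKM in untreated replicates 1, 2 and 3 and 46.6%, 41.4% and 42.2% in tamoxifen replicates 1, 2 and 3. Alternative subunits are summed on one side and joint subunits on the other, so the share does not measure the balance of both forms. The share was higher in 3 of 3 replicate numbers, by 4.36 percentage points on average, and the groups overlapped slightly (exact permutation test over samples, p = 0.2; over the 3 pairs p = 0.25, the smallest possible). Summed FPKM of the Polycomb-like genes went from 54.5 ± 7.92 to 66.5 ± 5.86 and that of Jarid2 and Aebp2 from 85.9 ± 18.9 to 87.5 ± 14.8 (SD, n = 3 each).

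Ezh2, the main catalytic gene of dividing cells, lies at chr6:47480273-47545029 (mm9, minus strand, protein coding, 13 annotated transcripts). It read 63.0, 37.0 and 51.6 FPKM in untreated replicates 1, 2 and 3 and 74.7, 51.0 and 66.3 FPKM in tamoxifen replicates 1, 2 and 3. Within each number the tamoxifen sample was higher, and the order 1, 3, 2 was the same in both groups, so that the groups overlapped widely. The log2 difference was 0.36, or 1.28-fold (standard error 0.27, limma adjusted p = 0.999). The block gave a limma adjusted p of 0.0507, just outside the threshold (standard error 0.09, 95% interval 1.10-fold to 1.49-fold). Leaving out replicate number 1 brought it to 0.026 (limma with block), and adding quantile normalization took it to 0.1 (limma with block).

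Ezh1, whose product has weaker methyltransferase activity, lies at chr11:101052429-101087764 (mm9, minus strand). It read 16.8, 10.2 and 10.4 FPKM in untreated replicates 1, 2 and 3 and 15.997, 13.5 and 11.1 FPKM in tamoxifen replicates 1, 2 and 3, with a log2 difference of 0.15 (limma adjusted p = 0.44 with the block). Of the FPKM of both catalytic genes, Ezh1 made up 21.0%, 21.6% and 16.7% in the untreated samples and 17.6%, 20.9% and 14.4% in the tamoxifen samples. This share was lower in 3 of 3 replicate numbers, by 2.13 percentage points on average, less than the spread between replicates (exact permutation test over samples, p = 0.5; over the 3 pairs p = 0.25, the smallest possible).

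Suz12, at chr11:79806608-79847625 (mm9, plus strand), read 130.2, 121 and 175 FPKM in untreated replicates 1, 2 and 3 and 121, 129 and 167 FPKM in tamoxifen replicates 1, 2 and 3. Replicate number 3 was the highest in both groups and the groups had nearly the same range. Of the 10 genes it differed least between groups, by −0.025 on the log2 scale, a difference whose sign depended on the scaling (0.076 with TPM). With the block the 95% interval was 0.847-fold to 1.14-fold (limma adjusted p = 0.88). The ratio of Ezh2 to Suz12 within samples was 0.484, 0.306 and 0.295 in untreated replicates 1, 2 and 3 and 0.618, 0.396 and 0.397 in the tamoxifen ones, higher in 3 of 3 numbers (exact permutation test over samples, p = 0.3), a measure chosen after the values were seen.

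Eed, at chr7:97103164-97129486 (mm9, minus strand), read 54.7, 44.1 and 72.3 FPKM in untreated replicates 1, 2 and 3 and 64.5, 50.6 and 74.0 FPKM in tamoxifen replicates 1, 2 and 3. Its log2 difference was 0.16 (limma adjusted p = 0.29 with the block), positive in each number and smallest in number 3. All 6 values of Eed lay above their own deposited interval, the only such values among the 60 of these genes. The reason is not known, so the interval is no guide to the precision of Eed, and its level carries the same doubt.

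Rbbp7, at chrX:159198304-159217022 (mm9, plus strand), read 165, 91.9 and 139 FPKM in untreated replicates 1, 2 and 3 and 181, 112 and 149 FPKM in tamoxifen replicates 1, 2 and 3. Each tamoxifen value was the higher of its pair, and number 2 was lowest in both groups. The log2 difference was 0.17 (limma adjusted p = 0.25 with the block). Its row shares 172 bp with that of Txlng, which was listed at 0 in both samples of replicate number 1 and at 12.8 to 15.6 FPKM in the other 4; the part of this overlap in the values of Rbbp7 was not tested. Rbbp4, its paralog, had log2 difference 0.19 (limma adjusted p = 0.22 with the block), and the ratio of Rbbp7 to Rbbp4 stayed between 1.48 and 1.75 in all 6 samples.

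**Figure D3:**
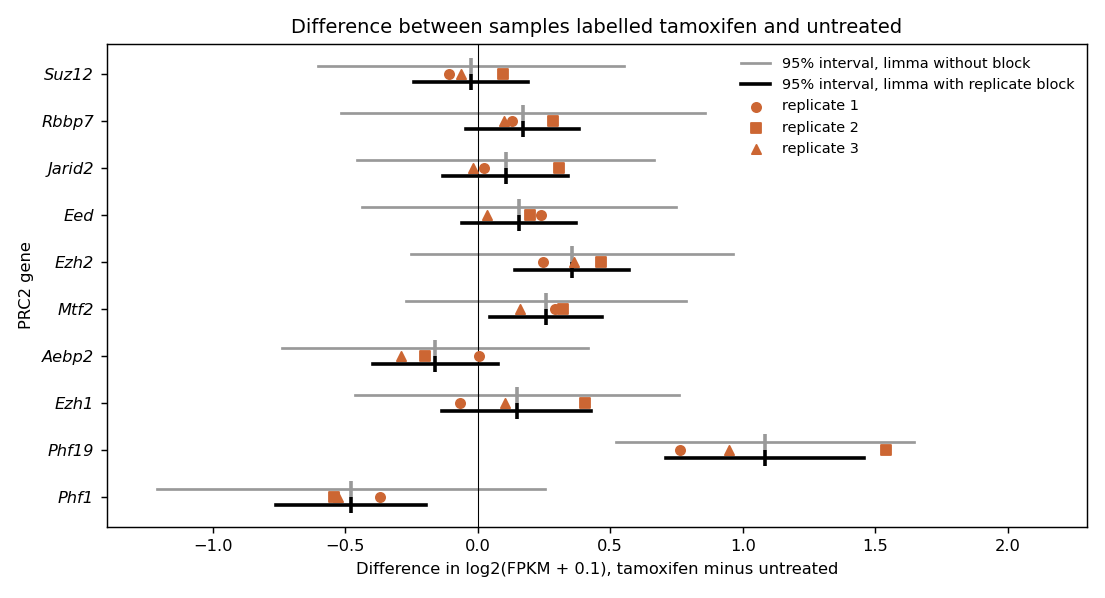
Difference in log2(FPKM + 0.1) between samples labelled tamoxifen and untreated for the 10 genes, by replicate number (orange symbols), with the mean and 95% interval from limma without (grey) and with (black) the replicate block. Only the grey interval of Phf19, from 0.52 to 1.65, is clear of 0, and the black intervals of Phf19, Ezh2, Mtf2 and Phf1 are clear of 0 before adjustment for the number of genes tested.

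Taking direction alone, 5 of the 10 genes (Ezh2, Eed, Rbbp7, Mtf2 and Phf19) were higher in 3 of 3 replicate numbers and 1 (Phf1) was lower in all of them, where 24.8% and 28.2% of all genes tested did so. Groups did not overlap for 1 gene on the higher side (Phf19) and for 0 on the lower side, beside 3.09% and 5.4% of all genes. With 10 genes, no excess can be read from 1 such gene. The median log2 difference was 0.15 over the 10 genes and −0.02 over all genes tested.

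These genes also varied with the replicate number. For 9 of the 10 the range over replicate numbers exceeded the difference between groups on the log2 scale, and for Phf19 it was 0.29 against 1.08. Of the 10 genes, 6 ranked the replicate numbers in the same order in both groups. The range was widest in Phf1 at 0.84 and Rbbp7 at 0.77. Number 2 was lowest for 6 genes, number 3 highest for 5 and number 1 highest for 4. Shares of all genes tested were not computed for these counts, so they cannot be called particular to the PRC2 genes. Over the 6 samples the genes nearest to the pattern of Ezh2 were Pnp2, Gars and Slc25a5, with a root mean square difference of centred log2 values of 0.024, 0.024 and 0.03; among PRC2 genes Rbbp7 was nearest at 0.11 and Phf1 farthest at 0.73. Likeness over 6 samples that share replicate numbers is a description only.

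Summed FPKM of 10 fibroblast markers (such as Col1a1, Dcn and Thy1) followed the replicate number and not the label, at 39.8 and 48.5 in number 1, 108 and 104 in number 2 and 81.9 and 78.5 in number 3, untreated first. Their part in the replicate pattern of the PRC2 genes was not tested. With or without the block, limma called 0 of the 9 fibroblast markers tested, and 1 of the 10 listed, Lum, was at 0 in 1 sample. All 10 ESC markers (such as Pou5f1, Nanog and Sox2) were expressed, with sums of 2892 to 4069 FPKM in untreated and 3210 to 5614 FPKM in tamoxifen samples. Of these sums Dppa5a alone gave 1401 to 2221 FPKM in untreated and 1582 to 3534 FPKM in tamoxifen samples. In either fit, 0 of the 10 ESC markers were called. The median log2 difference was 0.05 over the fibroblast and 0.17 over the ESC markers.

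**Figure D4:**
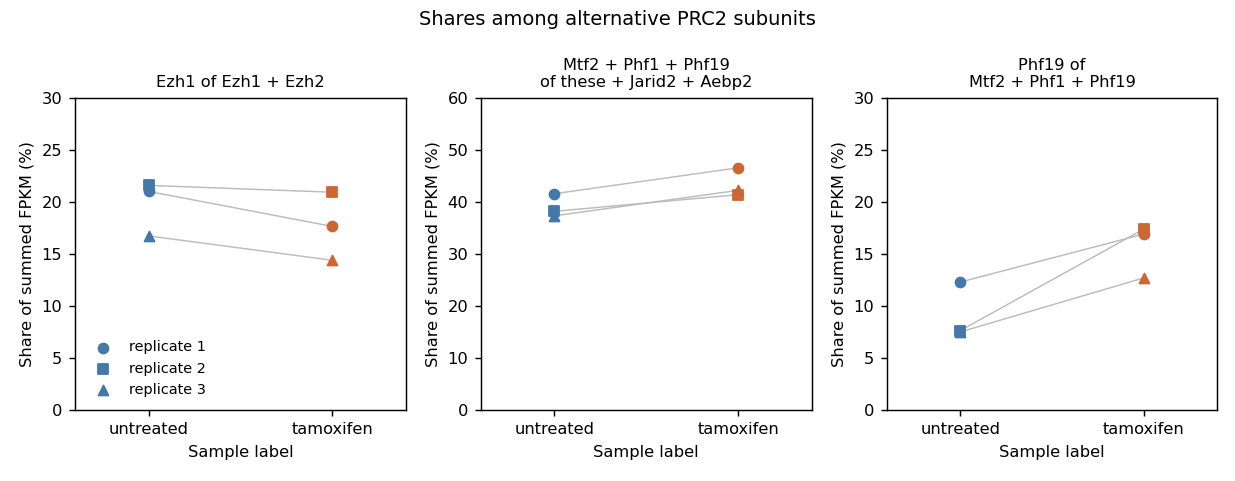
Share of summed FPKM in each sample, in percent, for Ezh1 among the catalytic genes, for the Polycomb-like genes among the accessory genes, and for Phf19 among the Polycomb-like genes; grey lines join samples of the same replicate number and symbols mark the number. The first share is lower and the other two are higher in the tamoxifen sample of each pair, and only for Phf19, at 7.49% to 12.3% against 12.7% to 17.4%, are the groups apart.

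Other genes of the pathway changed in few cases. Of 5 further PRC2-associated genes, 4 were tested and 0 were called in either fit, with a median log2 difference of 0.12. E130012A19Rik (Epop), for a partner of the MTF2-containing form, had 112 FPKM at most and a log2 difference of −0.04 (limma adjusted p = 0.79 with the block). AU022751 (Ezhip), for an inhibitor of PRC2, stayed between 1.09 and 2.43 FPKM with a log2 difference of 0.20 (limma adjusted p = 0.43 with the block). Lcor, whose locus also gives rise to the PRC2 partner PALI1, stayed at or below 0.584 FPKM, and Lcorl was listed at 0 in all 6 samples. The H3K27 demethylase genes Kdm6a and Kdm6b differed by −0.03 and −0.36 (limma adjusted p = 0.93 and 0.19 with the block), and neither was called (median −0.20).

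Among 20 PRC1 genes, limma called 0 higher with the block and 0 in either direction without it, with a median log2 difference of −0.07. Bcor, for the corepressor that joins KDM2B and PCGF1 in variant PRC1, fell from 58.6 ± 6.70 to 10.2 ± 3.92 FPKM (SD, n = 3 each; limma adjusted p = 0.066, and 0.0015 with the block). Rnf2, which encodes RING1B, had a log2 difference of 0.05 (limma adjusted p = 0.73 with the block).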

How the data were processed

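PolyA+ RNA of Kdm2b fl/fl ESCs (3 replicates labelled untreated, 3 labelled as treated with tamoxifen) was sequenced by the authors as directional paired-end libraries, aligned to mm9 with TopHat2 and quantified on refGene models. The deposited values are FPKM with interval bounds and a status flag for each refGene row. The methods credit them to Cuffdiff 2.1.1, under the name RPKM. How samples were scaled to each other is not given in the sources used here. The 17 ChIP-seq and input samples of the series are not analysed here. No samples were pooled, and replicates are assumed to be separate cultures because the methods call them biological triplicates.

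Rows of one gene name were summed and 6 gene names with a failed value in any sample left out, leaving 23363. Genes with at least 0.5 FPKM in at least 3 of the 6 samples, 12997 in all, entered the fit as log2(FPKM + 0.1); moderated tests came from limma (version 3.58.1, R 4.3.3, eBayes, trend on), and p-values were adjusted over all of them by the method of Benjamini and Hochberg; fold changes on this scale understate changes of low genes. Deviations of same-numbered samples from their group means correlated across genes at 0.544, 0.605 and 0.506 for numbers 1, 2 and 3, so the replicate numbers of the labels were taken as pairs and a fit with them as a block is given where it changes a call. Shares were compared by exact two-sided permutation over samples. Positions are those of the deposited tables, counted from 1, because 6 of the 10 starts plus 1 met an exon start in the GENCODE annotation of the same build; strands and transcripts come from that annotation. RefSeq promoters of build GRCm38.p6 were matched by symbol for 10 of 10 genes.

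The 10 genes, the gene lists and the tests were chosen with earlier results of these data known. Genes named are the 10 members, Kdm2b, all genes of both short lists, genes called in the longer lists (1 result is not reported here) and the 3 genes most like Ezh2 in root mean square difference. Rnf2, Txlng, Dppa5a and the neighbours of Phf19 and Phf1 were named after their values were seen. Alternatives were a pseudocount of 1, TPM scaling, quantile normalization, the block, the block with either scaling, no filter, the highest row per gene, and leaving out each sample or replicate number.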

Additional observations from a re-analysis of the deposited data

How the results depend on the processing

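Phf19 was higher and Phf1 lower under all 17 alternatives to the fit, from 0.86 to 1.26 and from −0.70 to −0.23 on the log2 scale. Ezh2 (0.15 to 0.53), Mtf2 (0.14 to 0.42) and Ezh1 (0.02 to 0.38) were also higher under all of them. The block, no filter and the highest row per gene could not change the size of these differences. The block with a scaling repeats the size found with that scaling alone. Directions in these settings are thus not separate checks. Of 170 values of the 10 genes under all 17 alternatives, 152 kept their direction and side of the threshold, 8 newly passed it and 10 changed sign. Those 10 were Suz12 with TPM scaling without or with the block (0.0762 each), without untreated replicate 3 (0.13), tamoxifen replicate 1 (0.07) or 2 (0.02) and with the block without replicate number 1 (0.0156); Eed and Rbbp7 without untreated replicate 2; Jarid2 without untreated replicate 1; and Aebp2 without untreated replicate 3. With samples left out, Suz12 ranged from −0.17 to 0.13, Eed from −0.0146 to 0.34, Rbbp7 from −0.0717 to 0.35, Jarid2 from −0.0138 to 0.26 and Aebp2 from −0.33 to 0.0371.

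PRC2 genes called higher and lower numbered 0 and 0 without the block, 1 and 1 with the replicate block, 1 and 0 with the block and quantile normalization or, chosen after seeing the data, TPM scaling. With the block and without replicate number 1, 2 or 3 they ranged from 0 to 2 higher and from 0 to 1 lower. Leaving out single samples without the block gave 0 and 0 throughout. Over all genes the counts were 3 higher and 1 lower without the block, 563 and 787 with the replicate block, 558 and 586 with the block and quantile normalization and 430 and 336 with the block and TPM scaling. A pseudocount of 1 gave 0 lower. Leaving out single samples gave 2 to 5 higher and 0 to 7 lower, and with the block without 1 replicate number 36 to 744 higher and 43 to 1011 lower, the fewest without number 2 (359 and 478 without number 3). The cause was not tested. With single samples left out, the difference in the Ezh1 share stayed negative but moved from −2.13 to between −3.76 (without tamoxifen replicate 2) and −0.491 (without tamoxifen replicate 3) percentage points, and that in the Polycomb-like share from 4.36 to between 2.78 (without tamoxifen replicate 1) and 5.63 (without untreated replicate 1). Pairing by replicate number left both sizes unchanged. TPM scaling moved the median over all genes to 0.08 from −0.02. The block changed no other call of the 10 genes. Depth limits the low genes most, Phf1 having the widest intervals.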
